A study of Mus musculus with 17 samples.

Results

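The tissue described here is a flank graft of a mouse rhabdoid tumor, compared with healthy mouse brain. The comparison covered 6 of the 17 libraries of the series, the 3 titled as syngeneic tumors and the 3 titled as healthy brain, and all genes with enough counts, 21494 of 50600 gene identifiers in the deposited files. All 17 libraries were labelled with the strain C57BL/6J and made from polyA RNA. The graft libraries carried the genotype label SMARCB1 -/- and a tissue label for a syngeneic tumor graft placed in the flank, and the brain libraries carried the genotype label WT. The other 11 libraries came from tumors that were also labelled SMARCB1 -/-, 3 CNS tumors of the SHH subtype, 4 CNS tumors of the Myc subtype and 4 extracranial tumors. The Myc and extracranial tumors, taken as the mean of both groups, served as a second reference, and both comparisons use the same 3 grafts. The tumor that was grafted, the number of passages, the promoter or Cre line behind the Smarcb1 loss, the age and sex of the animals, and the region of brain taken are not given in the sources used here. The labels do not say that libraries of a group came from separate animals, so the p-values measure the spread between these samples, part of which may be technical.

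Rhabdoid tumors are cancers of early life that arise in brain, kidney and soft tissue and typically lack SMARCB1, which belongs to the core of the SWI/SNF chromatin remodelling machine. SWI/SNF moves nucleosomes and keeps enhancers open, in opposition to the Polycomb complexes. A syngeneic graft is placed in a host of the same inbred strain with its immune system intact, so RNA from a whole graft comes from tumor cells together with host vessels, stroma and leukocytes. Bulk RNA cannot tell fewer cells of a type from less RNA per cell, and this holds for every gene group below. Levels are given as CPM, the counts divided by the scaled size of the library and put on a common total, and differences as log2 of grafts over brain with the standard error (SE) from edgeR's quasi-likelihood test fitted to all 17 libraries. P-values were adjusted by the Benjamini-Hochberg method over the 21494 genes tested, and a gene was called higher or lower when the adjusted p was under 0.05. Values in brackets are the log2 difference ± SE and the adjusted p. Where leaving out 1 graft or brain library ended the call of a difference printed with its test, that is given in the same paragraph.

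The deleted gene was read first. Smarcb1 (ENSMUSG00000000902.13, chromosome 10, 75896769 to 75921617, minus strand) was at 31.1, 30.7 and 25.1 CPM in the 3 grafts and 132, 121 and 119 CPM in the 3 brains. All grafts lay under all brains, and the log2 difference was -2.10 ± 0.69, adjusted p = 0.0186. The 4 Myc tumors held 10.4 ± 3.07 CPM and the 4 extracranial tumors 15.4 ± 7.31 CPM (mean ± SD). The grafts' mean lay above both, by a log2 difference of 1.19 ± 0.52 (SE, adjusted p = 0.157) that missed the threshold. The sources used here do not give the deleted exons, and reads from an allele without them, or from host cells, would be counted too. Macrophage and monocyte markers, which are host genes in such a graft, summed to 12580.2 to 16274 CPM in the grafts against 187 to 302 CPM in brain. Their part in the Smarcb1 level was not tested. Leaving out 1 library ended the call against brain of Smarcb1 (with graft 3 left out, adjusted p = 0.0606).

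The grafts were deeply and unevenly sequenced, with 36951431, 56551814 and 96214427 counts, and the brains held 103095016 to 130835711 counts. Among the 3 grafts log2 levels had a median SD of 0.136 per gene, against 0.185 in brain, 0.341 in the extracranial and 0.342 in the Myc tumors. The 3 grafts correlated across genes with each other at a median r of 0.981, with the Myc tumors at 0.914 to 0.929, with the extracranial tumors at 0.896 to 0.935 and with brain at 0.681 to 0.712. These correlations are over genes, which are not independent replicates. Healthy brain 1 stood apart from the other 2 brains by transcripts of other tissues. It held 1214 CPM of the pituitary hormone gene Gh, 138 CPM of the muscle gene Acta1 and 551 CPM of the cartilage gene Col2a1, where the other 2 brains held at most 0.135, 3.1 and 31.4 CPM.

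Differences between grafts and brain were found on a broad scale. Of 21494 genes tested, 5349 (24.9%) were higher and 6542 (30.4%) lower in the grafts, 55.3% in all, and the 3 grafts and 3 brains did not overlap for 75.0% of genes. The median log2 difference was -0.16 over all genes, 2.28 over the genes called higher and -3.68 over those called lower. Changes past 4 on the log2 scale were found for 1448 genes upward (6.74%) and 3058 downward (14.2%). Several list counts given below lie near or under the shares called over all genes and are no result about those lists as groups. They are those of oligodendrocyte, barrier, pan-endothelial, neutrophil, adipocyte, collagen and epithelial genes and of mesenchymal factors. The counts of oncofetal, Notch, TGF-beta and BMP genes, and of the higher Polycomb genes, belong with them. Genes with high levels in brain and few or no reads in the grafts come first.

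**Figure D1:**
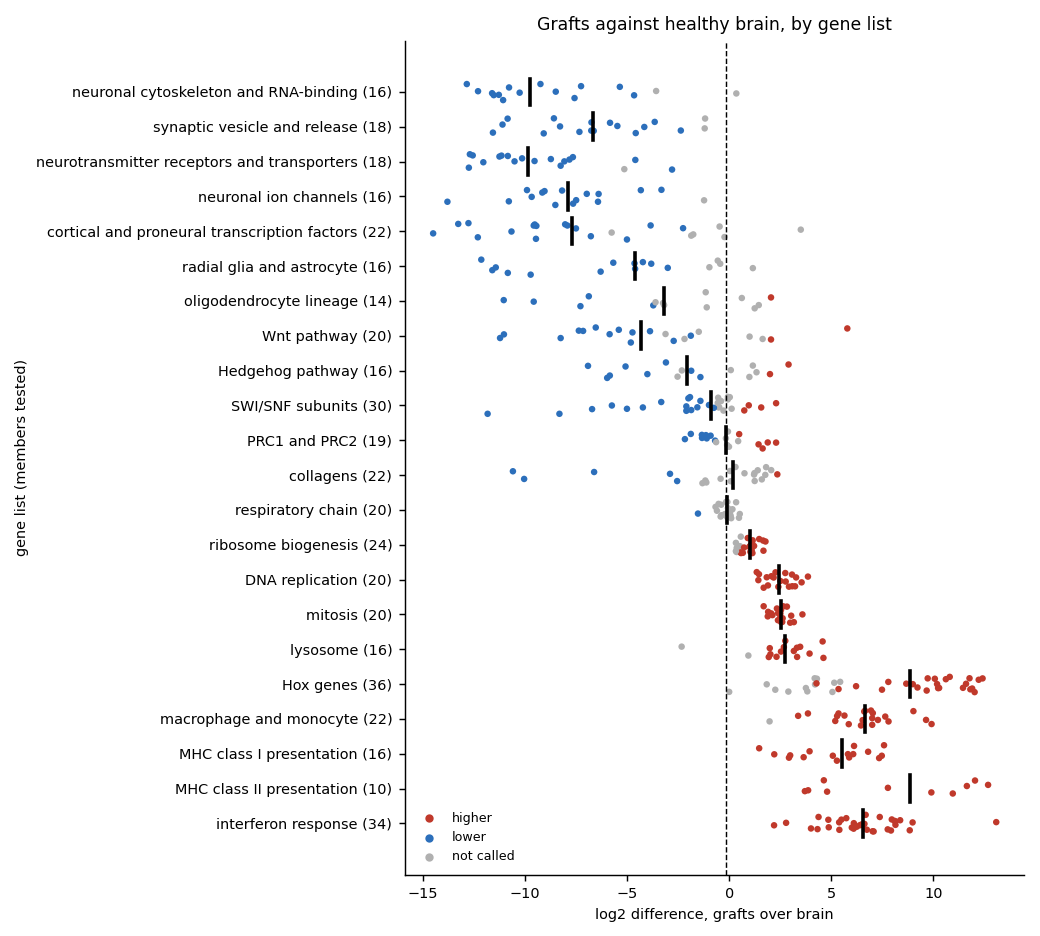
Log2 difference of grafts over brain (x axis) for each tested member of 22 gene lists (rows). Each point is a gene, coloured by whether it was called higher, lower or not called, the black bar is the list median and the dashed line is the median over all genes (-0.16). Neuronal lists sit far to the left, immune and Hox lists far to the right, and the respiratory chain list lies around the dashed line.

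Most neuronal genes were read at very low levels in the grafts. Dcx, a microtubule-binding protein of migrating young neurons, was at 972, 1607 and 1367 CPM in brain and at 0.0281, 0.184 and 0.272 CPM in the grafts, a log2 difference of -12.86 ± 1.36, adjusted p = 7.85e-06. Mapt, which encodes the axonal protein tau, was at 1844, 2309 and 2568 CPM in brain and 0.647, 1.31 and 1.12 CPM in the grafts, with a log2 difference of -11.08 ± 1.06, adjusted p = 4.19e-06. Among 16 genes of the neuronal cytoskeleton and neuronal RNA-binding proteins, 14 were lower and none higher, and the median log2 difference was -9.76, with Nefl and Nefm not called. Synaptic vesicle genes were lower in 16 of 18 cases, neurotransmitter receptors and transporters in 17 of 18, and neuronal ion channels in 15 of 16. Gria2, the AMPA receptor subunit that blocks calcium entry, was at 0, 0.147 and 0.125 CPM in the grafts and 512, 762 and 775 CPM in brain (-12.71 ± 1.59, adjusted p = 2.68e-05). Syt1, the calcium sensor of vesicle release, was an exception in size. It was at 135, 197 and 134 CPM in the grafts and 311, 381 and 377 CPM in brain, a log2 difference of -1.20 ± 0.83, adjusted p = 0.233 that was not called.

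Transcription factors of neuronal fate were lower as well. In the list of cortical and proneural factors 16 of 22 were lower. Fezf2, which specifies deep-layer projection neurons, had 0 counts in all 3 grafts. Set against a floor of 3 counts over the group, its mean level in brain was at least 1226-fold higher. Neurod2, a factor of maturing cortical neurons, had 2 counts over the grafts and 31064 over the brains. Eomes, a T-box factor of cortical intermediate progenitors that NK cells and some T cells also use, went the other way. It was at 222, 174 and 264 CPM in the grafts and 8.7, 34.4 and 14.9 CPM in brain, and the log2 difference of 3.51 ± 1.57, adjusted p = 0.0701 was not called. Against the Myc and extracranial tumors Eomes was higher in the grafts, by 4.26 ± 1.11 (SE, adjusted p = 0.0338). Tbr1, which follows Eomes in the cortical lineage, was at 0.141, 0.0369 and 0.115 CPM in the grafts. The NK receptor gene Ncr1 was at 7.82, 3.15 and 7.71 CPM in them, and the source of the Eomes reads was not tested. Of the differences against the other tumors, that of Eomes (with any 1 graft left out, adjusted p up to 0.104) did not stay past the threshold when single libraries were removed.

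The genes with the largest losses included several that marked neurons without being in these lists. Calb2, the calcium buffer calretinin, had 1 count over the grafts and 25435 over the brains. Srrm4, a splicing factor for neural microexons, had 2 counts against 46102. Grm3, a metabotropic glutamate receptor, and Cbln4, a secreted synapse organizer, had 0 counts in the grafts, and brain means were at least 1444-fold and at least 1780-fold above the floor.

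Glial lists were called unevenly. Of 16 radial glia and astrocyte genes 12 were lower. Leaving out single libraries gave 8 to 11, with 9 without healthy brain 1. Fabp7, a lipid-binding protein of radial glia, was at 0.197, 0.129 and 0.23 CPM in the grafts and 419, 567 and 591 CPM in brain (-11.44 ± 2.18, adjusted p = 0.000614). Sox2, the factor that maintains neural progenitors, was at 0, 0.0553 and 0.0418 CPM against 84, 72.4 and 55.2 CPM (-10.85 ± 1.61, adjusted p = 9.64e-05). In the oligodendrocyte lineage 5 of 14 genes were lower, among them Olig1 with 4 counts over the grafts and 17390 over the brains. Without graft 1 or graft 2 the count of lower genes in that list was 3, and the list summed to 231 to 704 CPM in the grafts against 292 to 321 CPM in brain. The myelin gene Mbp was not called, at 20.2, 25 and 9.42 CPM against 48.7, 36.5 and 35.8 CPM. Pdgfra, the receptor of oligodendrocyte precursors that mesenchymal cells use too, was higher, at 573, 385 and 122 CPM against 91.4, 77.6 and 92.7 CPM (2.05 ± 0.78, adjusted p = 0.0382). Ependyma and choroid plexus genes were lower in 9 of 12 cases, and in 6 to 9 with 1 library left out. Single libraries decided the call against brain of Pdgfra (with graft 1 or 2, or any 1 brain, left out, adjusted p up to 0.146).

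The counts of both endothelial lists lay near the share over all genes, and single genes went in both directions. Genes of the blood-brain barrier summed to 769 to 1371 CPM in the grafts and 693 to 964 CPM in brain and were lower in 4 of 12 cases. Mfsd2a, the lipid transporter of barrier endothelium, was at 1.24, 1.14 and 1.1 CPM in the grafts and 26.2, 25.5 and 25.6 CPM in brain (-4.47 ± 0.86, adjusted p = 0.000673), and Slco1c1, a barrier thyroid hormone transporter, fell by 10.82 on the log2 scale with 7 counts left over the grafts. Pan-endothelial genes were higher in 5 of 14 cases and lower in none. Without brain 2 or brain 3 that count was 3. Plvap, the diaphragm protein of fenestrated vessels that barrier endothelium lacks, was at 73, 93.2 and 106 CPM against 12.4, 3.24 and 5.5 CPM (3.68 ± 0.99, adjusted p = 0.00626). Cdh5, which encodes VE-cadherin of endothelial junctions, was at 142, 116 and 154 CPM against 47.8, 39.6 and 33 CPM (1.77 ± 0.51, adjusted p = 0.00883). Cdh5 was also above the Myc and extracranial tumors, by 1.58 ± 0.38 (SE, adjusted p = 0.0257). The call against the other tumors did not survive the removal of 1 library for Cdh5 (with any 1 graft left out, adjusted p up to 0.105).

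Hox genes were a second large group that divided grafts from brain. These genes, whose clustered order marks position along the body axis and which forebrain does not express, were higher in 24 of 36 tested cases and lower in none. Their summed level was 493 to 537 CPM in the grafts and 0.35 to 13.3 CPM in brain. Hoxc6, of the trunk part of its cluster, was at 21.2, 15.7 and 13.3 CPM in the grafts and had 3 counts over the 3 brains. Hoxd10, from the posterior end of its cluster, was at 19.7, 21.3 and 18.9 CPM and had 1 count over the brains. Some anterior members were not called. Hoxa2 was at 4.02, 3.81 and 9.27 CPM against 0.604, 1.69 and 0 CPM and Hoxa3 at 8.55, 7.68 and 16.4 CPM against 0.373, 1.92 and 0 CPM, and neither was called. These missing calls depended on the setting, since each of these genes was called under an alternative. The alternative settings other than leaving out a library gave 24 to 35 higher of the 36 Hox genes.

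**Figure D2:**
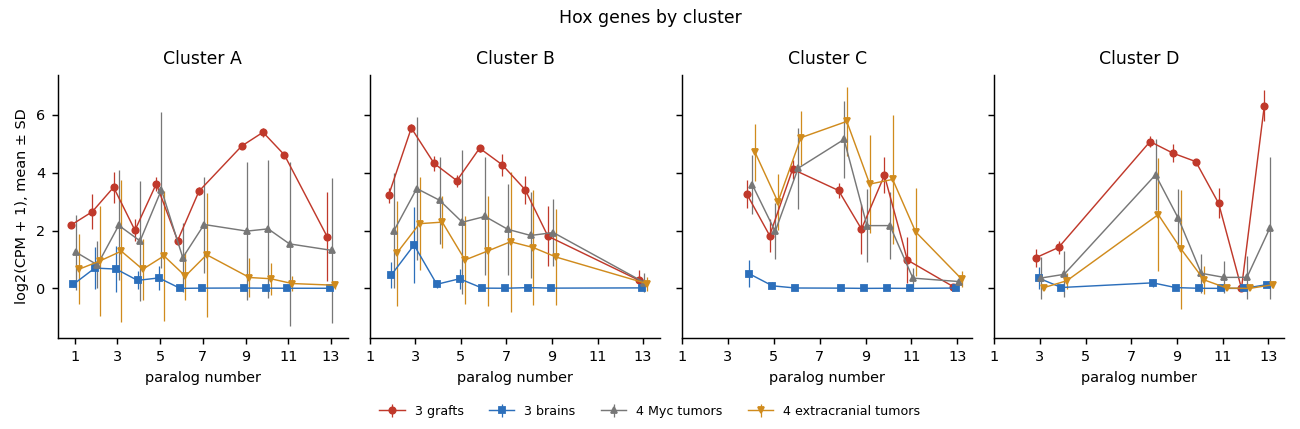
Mean level, as log2(CPM + 1) on the y axis, of each tested Hox gene in its cluster (panels A to D) by paralog number (x axis), for 3 grafts, 3 brains and the 4 Myc and 4 extracranial tumors. Bars give the SD over libraries. The grafts lie above brain for most paralogs of all 4 clusters, and Hoxd12 and Hoxc13 are near 0 in both. In clusters A, B and D the grafts also lie above the means of the Myc and extracranial tumors for most paralogs. Of these only Hoxd10, Hoxd11 and Hoxd13 were called. In cluster C the grafts lie below both tumor means for most paralogs.

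Of the 36 Hox genes tested, 3 were above the Myc and extracranial tumors and 1 was below. Without graft 1, 2 or 3 the counts were 1, 0 and 2 above and 0 below each time. These few calls are no result about Hox genes as a group. Hoxd10 was above the Myc and extracranial tumors by 5.66 ± 1.37 (SE, adjusted p = 0.0255), Hoxd11 by 6.83 ± 1.45 (SE, adjusted p = 0.0176) and Hoxd13 by 6.21 ± 1.33 (SE, adjusted p = 0.0151). Hoxc8 was below them, by -2.59 ± 0.72 (SE, adjusted p = 0.0418), at 10.9, 10.4 and 7.45 CPM in the grafts against 49.6 ± 52.8 CPM in Myc and 66.8 ± 43.4 CPM in extracranial tumors (mean ± SD). Over all genes, 1060 (4.93%) were higher and 706 (3.28%) lower in the grafts than in these tumors, 8.22% in all. Without graft 1, 2 or 3 the calls were 361, 328 and 371 higher and 71, 87 and 67 lower, and a fit to the compared groups alone gave 537 and 183. Removing 1 library ended the calls against the other tumors of Hoxd10 (with any 1 graft left out, adjusted p up to 0.076), Hoxd11 (with graft 1 or 2 left out, adjusted p up to 0.0614), Hoxd13 (with graft 2 left out, adjusted p = 0.0589) and Hoxc8 (with any 1 graft, or any 1 brain, left out, adjusted p up to 0.163).

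Some mesenchymal genes were far above brain. Prrx1, a homeobox factor of limb and craniofacial mesenchyme, was at 339, 345 and 409 CPM in the grafts and 25.6, 13.6 and 11.8 CPM in brain (4.42 ± 0.90, adjusted p = 0.000998). Twist1, a factor of mesenchymal fate, was at 29.6, 41.6 and 65.1 CPM against 4.56, 1.32 and 0.978 CPM (4.31 ± 1.11, adjusted p = 0.00475). Of 22 mesenchymal factors 5 were higher and 4 lower, the lower ones being Zeb1, Tcf21, Foxd1 and Tfap2b. The call of Zeb1 ended with any 1 graft, or brain 2 or 3, left out (adjusted p up to 0.116), and that of Tcf21 with graft 2 or 3, or brain 1, left out (adjusted p up to 0.0746). Genes of the contractile and adhesive mesenchymal cell were more uniform, with 14 of 20 higher. Vim, the intermediate filament vimentin, was at 6106, 6828 and 3883 CPM against 325, 231 and 200.4 CPM (4.48 ± 0.78, adjusted p = 0.000337), and Lgals1, which encodes galectin-1, at 1777, 1622 and 2078 CPM against 28.7, 14.6 and 11.9 CPM (6.63 ± 0.90, adjusted p = 4.77e-05).

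The cadherin genes were the 2 lower members of that list. Cdh2, which encodes N-cadherin, was at 20, 30 and 33.7 CPM in the grafts and 250.5, 263 and 250.2 CPM in brain (-3.19 ± 1.01, adjusted p = 0.0158). Cdh11, a cadherin of mesenchyme, was at 1.83, 1.51 and 2.3 CPM in the grafts and 107, 108 and 109 CPM in brain (-5.84 ± 1.60, adjusted p = 0.00704). The other tumors held 341 ± 394 CPM (extracranial) and 159 ± 275 CPM (Myc) of Cdh11, and the grafts differed from them by -6.95 ± 1.63 (SE, adjusted p = 0.0223). Epithelial genes were mixed, 3 higher and 4 lower of 15. Without brain 2 or brain 3 the count of higher ones was 1. Krt8, a keratin that rhabdoid cells are known to hold together with vimentin, was at 149, 262 and 265 CPM against 2.6, 0.786 and 0.493 CPM (7.44 ± 2.56, adjusted p = 0.0236). Cldn6, a claudin of embryonic epithelium, was uneven at 97.1, 160.0 and 5.16 CPM (7.90 ± 1.82, adjusted p = 0.00238), and it was above the Myc and extracranial tumors by 5.36 ± 1.09 (SE, adjusted p = 0.0121). Calls against brain that 1 library could end were those of Cdh2 (with graft 1 left out, adjusted p = 0.0578) and Krt8 (with brain 2 or 3 left out, adjusted p up to 0.0784). Leave-one-out fits lost the calls against the other tumors of Cdh11 (with any 1 graft left out, adjusted p up to 0.106) and Cldn6 (with graft 2 left out, adjusted p = 0.0654).

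Oncofetal genes were called in both directions. Hmga2, a chromatin protein of embryonic cells, was at 311, 247 and 495 CPM in the grafts and 2.49, 2.81 and 1.74 CPM in brain (7.22 ± 1.67, adjusted p = 0.00241). The imprinted gene Dlk1, a Notch-like ligand of precursor cells, was at 2196, 1186 and 2683 CPM against 184, 36.5 and 18.1 CPM (4.67 ± 1.47, adjusted p = 0.0149). On the other side, the imprinted gene Peg3 was at 7.71, 11.9 and 16.2 CPM against 673, 419 and 384 CPM (-5.36 ± 0.63, adjusted p = 1.63e-05), and Lin28b, the blocker of let-7 maturation, was at 0.225, 0.903 and 0.334 CPM against 67.1, 40.4 and 50.7 CPM (-6.75 ± 1.32, adjusted p = 0.000755). Igf2bp1, an RNA-binding protein of fetal tissue, was at 40.1, 50.8 and 87.6 CPM against 7.59, 23.1 and 10.6 CPM and was not called (2.11 ± 1.80, adjusted p = 0.332). Igf2, the fetal growth factor, was at 17, 129 and 30 CPM against 911, 435 and 386 CPM and was not called either (-3.30 ± 1.54, adjusted p = 0.0819). The count for the list was 3 higher and 4 lower of 20. For Dlk1 (with brain 2 or 3 left out, adjusted p up to 0.0564), the call against brain needed every library named.

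Members of the Myc family differed in opposite directions. Myc, a driver of growth, was at 163, 153 and 104 CPM in the grafts and 20.4, 28.2 and 30.6 CPM in brain (2.40 ± 0.39, adjusted p = 0.000203). Mycn was at 0.985, 0.977 and 0.501 CPM against 29.1, 56.4 and 47.2 CPM (-5.76 ± 0.83, adjusted p = 7.65e-05) and Mycl at 2.08, 0.553 and 0.992 CPM against 96.8, 93.8 and 87.7 CPM (-6.27 ± 0.68, adjusted p = 9.5e-06). Neither Myc nor Mycn differed from the Myc and extracranial tumors past the threshold, by 0.09 ± 0.31 (SE, adjusted p = 0.892) and 0.25 ± 0.58 (SE, adjusted p = 0.828). Ribosome biogenesis genes, many of them known Myc targets, were higher in 18 of 24 cases at a median log2 difference of 1.01. An example is Npm1, the nucleolar protein nucleophosmin, at 1169, 1197 and 1266 CPM against 373, 396 and 381 CPM (1.66 ± 0.28, adjusted p = 0.000227).

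Proliferation genes were higher without exception among those listed. All 20 of 20 DNA replication genes and all 20 of 20 mitosis genes were called higher, with median log2 differences of 2.46 and 2.52. Mcm3, a subunit of the replicative helicase, was at 187, 176 and 191 CPM against 15, 17.9 and 14.3 CPM (3.55 ± 0.37, adjusted p = 6.77e-06), and Kif20a, a kinesin of cytokinesis, at 122, 93.4 and 146 CPM against 10.2, 12.5 and 7.33 CPM (3.59 ± 0.45, adjusted p = 2.83e-05). Mcm3 was also above the Myc and extracranial tumors, by 1.03 ± 0.26 (SE, adjusted p = 0.031). Without healthy brain 1, 19 of the replication genes and 20 of the mitosis genes were called. Leaving out 1 library ended the call against the other tumors of Mcm3 (with any 1 graft left out, adjusted p up to 0.116).

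Cell cycle inhibitors were higher at the same time. Cdkn2a, which encodes the inhibitors p16INK4a and p19ARF and is a known Polycomb target, was at 65, 62.6 and 69.1 CPM in the grafts and 0.0556, 0.0679 and 0.0875 CPM in brain (9.82 ± 0.62, adjusted p = 4.17e-07). Trp53 was at 252, 246 and 253 CPM against 32.4, 44.9 and 37.4 CPM (2.71 ± 0.27, adjusted p = 4.8e-06), and Ccng1, a p53 target, at 395, 358 and 277 CPM against 46.4, 62.9 and 48.3 CPM (2.71 ± 0.37, adjusted p = 5.46e-05). Over the list 14 of 20 were higher and 1 was lower. The lower gene was Rb1, the retinoblastoma protein gene, at 51.1, 42.1 and 40.4 CPM against 84.3, 97.3 and 83.3 CPM (-0.99 ± 0.30, adjusted p = 0.0127).

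Chromatin regulators changed by subunit. Of 30 SWI/SNF genes 4 were higher, 16 lower and 10 not called. Without brain 3 the count of higher ones was 2. Between the grafts and the Myc and extracranial tumors none was called by edgeR's quasi-likelihood test, while 5 had an unadjusted p under 0.05 and DESeq2 and limma called 0 and 5. Subunits known from the complex of mature neurons were among the lower ones. Actl6b, the neuronal actin-like subunit, was at 0, 0.0369 and 0.0522 CPM in the grafts and 99.7, 147 and 158 CPM in brain (-11.84 ± 1.08, adjusted p = 3.16e-06), while its counterpart in dividing cells, Actl6a, was at 62.1, 60.2 and 69.7 CPM against 43.4, 29.3 and 26.2 CPM (0.96 ± 0.28, adjusted p = 0.0105). Ss18l1, another neuronal subunit, was at 6.75, 8.26 and 7.3 CPM against 124, 147 and 148 CPM (-4.23 ± 0.38, adjusted p = 3.09e-06), and its paralog Ss18 was at 111, 106 and 108 CPM against 34.8, 43.5 and 30.8 CPM (1.57 ± 0.23, adjusted p = 7.9e-05). The ATPase Smarca4 was not called, at 221, 207 and 216 CPM against 209, 382 and 342 CPM, and the alternative ATPase Smarca2 was lower (-1.86 ± 0.38, adjusted p = 0.000968). Brd9, a subunit of the non-canonical complex that lacks Smarcb1, was lower too (-1.41 ± 0.17, adjusted p = 2.35e-05). Of the differences against brain, that of Actl6a (with brain 3 left out, adjusted p = 0.0503) did not stay past the threshold when single libraries were removed.

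Polycomb genes were split, with 5 higher and 8 lower of 19. The methyltransferase Ezh2 was at 47.4, 42.5 and 87.7 CPM in the grafts and 35.9, 91.1 and 58.2 CPM in brain, overlapping, with a log2 difference of -0.06 ± 0.52, adjusted p = 0.929. Its partner Eed was higher (1.44 ± 0.23, adjusted p = 0.000144) and the chromobox gene Cbx2 lower (-2.17 ± 0.55, adjusted p = 0.00439). The count of higher ones was 3 with any 1 brain, or graft 1 or 2, left out, and without graft 1 that of lower ones was 5. Among genes of DNA methylation, Uhrf1, which recruits the maintenance methyltransferase to replicating DNA, was at 214, 186 and 323 CPM against 25, 26.8 and 18.7 CPM (3.36 ± 0.45, adjusted p = 4.44e-05), and Tet1, a demethylase, was at 0.9, 1.12 and 1.29 CPM against 36.3, 64.3 and 54.3 CPM (-5.54 ± 0.89, adjusted p = 0.000178). Both Uhrf1 and Dnmt1, the maintenance enzyme, were above the Myc and extracranial tumors, by 1.17 ± 0.32 (SE, adjusted p = 0.0401) and 1.0 ± 0.16 (SE, adjusted p = 0.00464). Single libraries decided the call against the other tumors of Uhrf1 (with any 1 graft, or any 1 brain, left out, adjusted p up to 0.207).

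Immune genes were frequent among the largest gains. Of the 20 genes with the largest log2 increase among those with at least 10 CPM in the grafts, Klrk1, Sirpb1a, Ccl8, Retnla, Ear2, Cxcl9, H2-Aa, Cd74, Scimp, Gzma, Gzmb, Art2b, Ighg1 and Ighg2b are known from leukocytes, and Hoxa10, Hoxa11, Hoxd10, Hoxb7 and Hoxb6 are Hox genes. Clec2h, a C-type lectin gene, completed them. This grouping is background knowledge and no fixed list. Klrk1, the activating receptor NKG2D of NK and T cells, was at 29.4, 37 and 46.3 CPM in the grafts and had 0 counts in brain, so that the graft mean was at least 4445-fold above the floor. Ccl8, a monocyte-attracting chemokine with near-identical relatives, was at 459, 754 and 980.3 CPM against 0.0397, 0.0485 and 0.0795 CPM (13.62 ± 1.72, adjusted p = 2.9e-05). Immunoglobulin transcripts were high in graft 3 alone. Ighg1 was at 0.113, 0.147 and 132 CPM in the grafts and had 0 counts in brain. Without graft 3 the calls of Ighg1 and Ighg2b were lost (adjusted p = 0.103 and 0.282), and that of Ighg2b also with any 1 brain left out (adjusted p up to 0.0665). Reads of Ighg genes, Ear2, Retnla and Sirpb1a could be shared with close relatives.

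Macrophage genes were higher nearly throughout. Of 22 macrophage and monocyte genes 21 were higher and only Cd163 was not called. Csf1r, the receptor for the macrophage growth factor, was at 1252, 871 and 915 CPM in the grafts and 32.3, 22.9 and 22.3 CPM in brain (5.29 ± 0.61, adjusted p = 1.47e-05). Adgre1, which encodes the marker F4/80, was at 502, 405 and 359.6 CPM against 4.08, 4.8 and 3.99 CPM (6.62 ± 0.82, adjusted p = 2.6e-05) and was above the Myc and extracranial tumors by 2.14 ± 0.50 (SE, adjusted p = 0.0214). Genes that set microglia apart from other macrophages did not follow one direction. Sall1, a factor of microglial identity that other brain cells hold too, was lower at 4.89, 6.21 and 8.16 CPM against 24.4, 37.9 and 29.9 CPM (-2.26 ± 0.85, adjusted p = 0.0359). Tmem119 was at 2.17, 5.34 and 24.9 CPM against 12.5, 2.48 and 2.09 CPM and was not called. P2ry12, a purinergic receptor of microglia, was higher at 49, 22 and 33.4 CPM against 4.3, 4.24 and 4.26 CPM (3.03 ± 0.70, adjusted p = 0.0025). Over the list of microglial identity 9 of 12 genes were higher, a list that shares genes with other macrophages. The call against brain did not survive the removal of 1 library for Sall1 (with any 1 graft, or brain 2 or 3, left out, adjusted p up to 0.102). Removing 1 library ended the call against the other tumors of Adgre1 (with any 1 graft left out, adjusted p up to 0.0947).

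Activation genes of macrophages were uneven among the grafts. Arg1, which depletes arginine in alternatively activated macrophages, was at 51.8, 467 and 46.3 CPM in the grafts and 0.54, 0.379 and 0.438 CPM in brain (8.70 ± 1.38, adjusted p = 0.000158), and graft 2 was the high one. Nos2, the enzyme of classical activation, was at 10.3, 44 and 7.58 CPM and was again highest in graft 2 (3.65 ± 1.30, adjusted p = 0.0274), with a log2 difference of 2.43 without that graft. Il1b was at 20.9, 49.1 and 3.54 CPM against 0.0794, 0.0873 and 0.0398 CPM (8.44 ± 1.28, adjusted p = 0.000118). In all 14 of 18 activation genes were higher. Neutrophil genes were higher in 3 of 12 cases, near the 24.9% over all genes, and in 5 without healthy brain 1. S100a8 and S100a9 were not called, at 4.13, 4.2 and 8.05 and 8.05, 7.21 and 12.3 CPM in the grafts. None of 7 mast cell and basophil genes was called by edgeR's quasi-likelihood test, while 1 had an unadjusted p under 0.05 and DESeq2 and limma called 1 and 4. A call against brain that 1 library could end was that of Nos2 (with graft 2, or any 1 brain, left out, adjusted p up to 0.129).

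Antigen presentation genes were higher throughout. All 16 MHC class I genes tested and all 10 class II genes were called higher, at median log2 differences of 5.55 and 8.85, and each of the 13 alternative settings gave the same counts. B2m, the light chain of class I molecules, was at 1933, 2199.7 and 2079 CPM in the grafts and 45.1, 23 and 23.9 CPM in brain (6.08 ± 0.48, adjusted p = 1.39e-06). Psmb8, a subunit of the immunoproteasome that cuts peptides for class I, was at 197, 239 and 233 CPM against 1.52, 0.922 and 1.3 CPM (7.48 ± 0.38, adjusted p = 8.91e-08). Tap1, the peptide transporter, was at 209.6, 243 and 230.1 CPM against 7.87, 4.47 and 7.89 CPM (5.08 ± 0.37, adjusted p = 8.77e-07). H2-K1 was at 1492, 1868 and 1702 CPM against 18.4, 6.36 and 6.15 CPM (7.35 ± 0.64, adjusted p = 2.27e-06), a value that near-identical H2 genes could share. Cd74, the invariant chain of class II, was at 2260.1, 4117 and 3311 CPM against 1.01, 0.602 and 0.66 CPM (12.05 ± 1.81, adjusted p = 0.000105), and Ciita, the switch factor of class II genes, at 78.8, 89 and 71.6 CPM against 0.103, 0.0582 and 0.0795 CPM (9.91 ± 1.41, adjusted p = 7.2e-05).

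Class I genes were above the Myc and extracranial tumors in 8 of 16 cases and class II genes in 3 of 10. Without graft 1, 2 or 3 the class I count was 3 each time, and the class II count was 1, 0 and 1. Psmb8 differed from those tumors by 1.63 ± 0.22 (SE, adjusted p = 0.0019), Tap1 by 1.49 ± 0.24 (SE, adjusted p = 0.00519) and Ciita by 3.12 ± 0.73 (SE, adjusted p = 0.0223). The macrophage list, whose cells carry both classes, was above those tumors in 6 of 22 cases, and in 0, 1 and 1 without graft 1, 2 or 3. How much of the presentation signal came from macrophages was not tested. Leave-one-out fits lost the call against the other tumors of Ciita (with any 1 graft left out, adjusted p up to 0.0803).

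**Figure D3:**
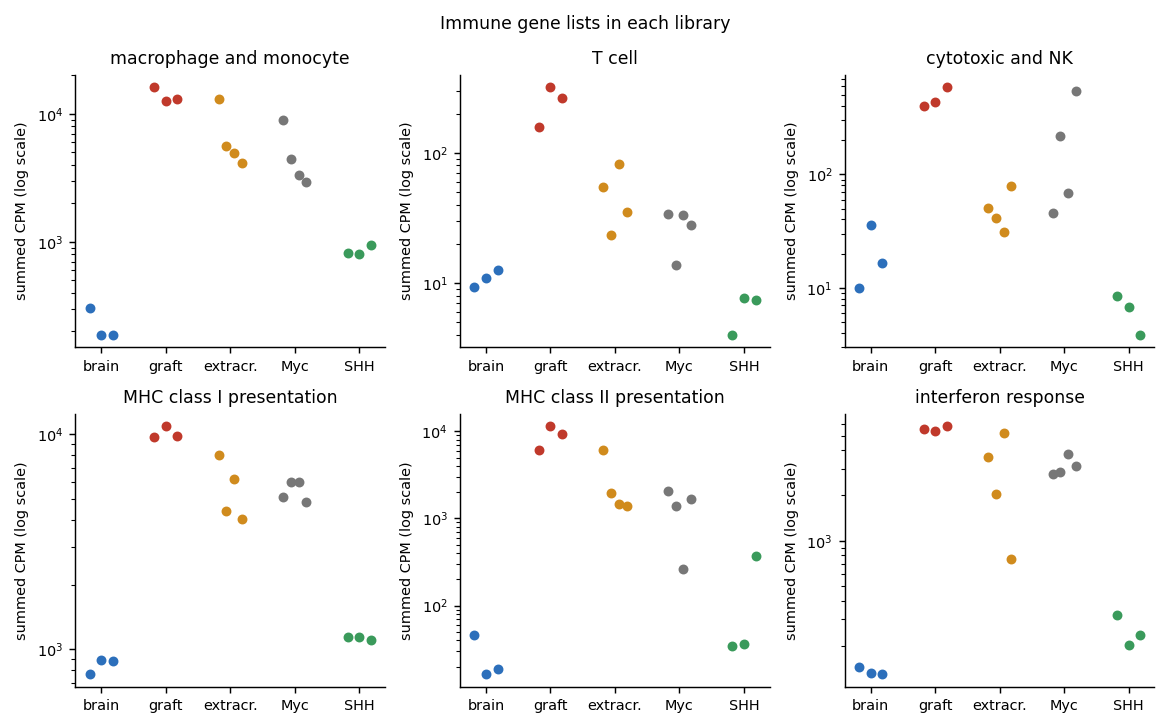
Summed CPM (y axis, log scale) over the tested members of 6 immune gene lists (panels) in each of the 17 libraries, grouped on the x axis. Points are libraries. In each panel the 3 grafts lie above the 3 brains, and the 3 grafts lie close together beside the wider spread of the Myc and extracranial tumors. Eomes makes up much of the cytotoxic and NK sum in the grafts and most of it in brain.

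Interferon-stimulated genes behaved alike. All 34 of 34 interferon-stimulated genes tested were higher, at a median log2 difference of 6.54, and this count was the same in each of the 13 alternative settings. Irf7, the factor that amplifies type I interferon, was at 330.2, 332 and 474 CPM in the grafts and 1.87, 0.98 and 1.17 CPM in brain (8.14 ± 0.84, adjusted p = 6.44e-06). Gbp2, a guanylate-binding GTPase, was at 322, 338 and 281 CPM against 2.14, 1.02 and 1.13 CPM (7.77 ± 0.68, adjusted p = 2.42e-06), and Igtp, an immunity-related GTPase, at 117, 136 and 124 CPM against 1.45, 1.04 and 1.3 CPM (6.63 ± 0.67, adjusted p = 5.51e-06). Against the Myc and extracranial tumors 7 of 34 were higher, and Irf7 was not called, at 1.33 ± 0.48 (SE, adjusted p = 0.0939). Without graft 1, 2 or 3 the count was 1 each time.

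Interferon-stimulated genes are known to carry a response element bound by the factors of that response, so their promoters were read for its core, GAAA followed after any 2 bases by a second GAAA, on both strands. Windows of 300 bases, 250 before and 50 after each start site, were taken from RefSeq (GRCm38.p6), and 24 of the interferon genes had at least 1 window. The core stood in a window of 16 of these 24 genes (66.7%), of 3 of 13 class I genes (23.1%) and of 0 of 7 class II genes, against 547 of 14067 tested genes with a window (3.89%) and 226 of 3641 genes called higher (6.21%). A match is a description of letters and does not show binding. The 250 bases before the start site are given for the 5 matching genes of both lists with the smallest adjusted p whose matches all lie before the start, 5′ to 3′ on the gene's strand, with the matches in capitals. Neighbouring matches can overlap, as in Oas1a and Bst2. The stretches are chr2:122147437-122147686 on the plus strand for B2m, chr3:142620413-142620662 on the plus strand for Gbp2, chr11:58199306-58199555 on the plus strand for Igtp, chr5:120907526-120907775 on the minus strand for Oas1a, and chr8:71537473-71537722 on the minus strand for Bst2.
B2m: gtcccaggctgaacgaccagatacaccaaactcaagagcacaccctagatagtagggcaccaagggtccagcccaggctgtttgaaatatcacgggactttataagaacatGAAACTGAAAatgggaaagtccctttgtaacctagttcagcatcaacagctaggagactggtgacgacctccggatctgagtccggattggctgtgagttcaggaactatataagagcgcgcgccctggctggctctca
Gbp2: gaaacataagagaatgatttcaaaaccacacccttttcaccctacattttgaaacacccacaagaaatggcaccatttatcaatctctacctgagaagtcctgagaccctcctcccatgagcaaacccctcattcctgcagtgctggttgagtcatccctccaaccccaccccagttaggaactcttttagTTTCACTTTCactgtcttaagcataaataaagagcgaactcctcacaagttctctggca
Igtp: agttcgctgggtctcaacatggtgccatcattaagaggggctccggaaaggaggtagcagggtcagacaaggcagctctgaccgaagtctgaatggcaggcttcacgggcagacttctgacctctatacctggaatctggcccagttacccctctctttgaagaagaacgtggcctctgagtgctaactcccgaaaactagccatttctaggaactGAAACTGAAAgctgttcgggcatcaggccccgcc
Oas1a: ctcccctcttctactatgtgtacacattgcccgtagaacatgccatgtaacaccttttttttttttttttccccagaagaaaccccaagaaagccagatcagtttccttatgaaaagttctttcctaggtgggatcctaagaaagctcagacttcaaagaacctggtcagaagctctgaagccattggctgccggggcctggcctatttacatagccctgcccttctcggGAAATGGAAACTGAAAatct
Bst2: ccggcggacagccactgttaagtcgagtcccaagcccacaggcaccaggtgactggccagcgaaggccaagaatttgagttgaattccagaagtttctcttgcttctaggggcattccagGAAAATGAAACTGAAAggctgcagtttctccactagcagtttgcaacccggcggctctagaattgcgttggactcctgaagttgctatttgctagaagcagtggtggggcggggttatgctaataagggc

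The 5 promoters differ in where and how the core sits. In B2m it begins 139 bases before the start site, in Gbp2 59 bases before it on the opposite strand, and in Igtp 34 bases before it. Oas1a holds overlapping matches that begin 20 and 14 bases before the start, and Bst2 holds overlapping matches that begin 130 and 124 bases before it. Oas1a, which makes the activator of RNase L, was at 114, 95.9 and 114 CPM in the grafts and 0.389, 0.524 and 0.374 CPM in brain (7.97 ± 0.81, adjusted p = 5.98e-06), and Bst2, which tethers budding virus, at 311, 271 and 315 CPM against 5.01, 2.9 and 2.71 CPM (6.40 ± 0.66, adjusted p = 6.7e-06). Near-identical copies of Oas1a could share its reads.

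Genes that sense nucleic acids upstream of interferon were higher too, in 15 of 16 cases, and only Adar was not called. Ddx58, Ifih1 and Zbp1 are also on the list of interferon-stimulated genes, so this count partly repeats that one. The DNA sensor cGAS (Mb21d1) was at 57.4, 45.4 and 44.3 CPM against 1.1, 1.15 and 0.915 CPM (5.54 ± 0.35, adjusted p = 4.17e-07), and its adaptor STING (Tmem173) at 96.2, 91.8 and 80 CPM against 1.75, 1.24 and 1 CPM (6.07 ± 0.71, adjusted p = 1.53e-05). Mavs, the adaptor of the RNA sensors, was at 59.6, 54.2 and 67 CPM against 3.97, 7.31 and 5.47 CPM (3.43 ± 0.34, adjusted p = 4.72e-06). Mb21d1 and Tmem173 were above the Myc and extracranial tumors, by 1.37 ± 0.23 (SE, adjusted p = 0.00519) and 1.79 ± 0.44 (SE, adjusted p = 0.0265), and Mavs was not (0.28 ± 0.25 (SE, adjusted p = 0.513)). Of the interferon genes themselves, Ifng, made by T and NK cells, was at 0.281, 0.848 and 0.741 CPM against 0.0318, 0.0194 and 0.0159 CPM (4.69 ± 0.72, adjusted p = 0.000503), with 127 counts over the 3 grafts. For Tmem173 (with any 1 graft left out, adjusted p up to 0.0995), the call against the other tumors needed every library named.

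With all libraries, T cell genes and cytotoxic and NK genes had the largest shares of members above the other tumors among the 63 lists. T cell genes were higher than brain in 14 of 16 cases and above the Myc and extracranial tumors in 10. Cytotoxic and NK genes were higher than brain in 13 of 14 and above those tumors in 11. Eomes is a member of this list, the one not called against brain and among the 11. It made up much of the list's summed level in the grafts and most of it in brain, and the source of its reads was not tested. Without graft 1, 2 or 3 the counts above those tumors were 5, 3 and 3 for T cell genes and 5 each time for cytotoxic and NK genes. The order of the T cell list did not hold then, since without graft 3 the dendritic cell list had 3 of 14 above and without graft 2 class I genes and nucleic acid sensors had 3 of 16 each. Cd3g, a chain of the T cell receptor complex, was at 7.23, 25.9 and 18.8 CPM in the grafts and had 5 counts over the brains, and it was above the other tumors by 3.27 ± 0.85 (SE, adjusted p = 0.0329). Cd4 was at 33.8, 38.2 and 50.3 CPM against 0.326, 0.281 and 0.421 CPM (6.89 ± 0.70, adjusted p = 6.15e-06) and above the other tumors by 2.52 ± 0.42 (SE, adjusted p = 0.00519). Gzmb, a granzyme of killer cells with close relatives, was at 31.1, 52.6 and 52 CPM with 4 counts over the brains, and above the other tumors by 4.04 ± 0.82 (SE, adjusted p = 0.012). Il2rb, a receptor chain for IL-2 and IL-15, was at 43.8, 70.7 and 70.1 CPM against 0.357, 0.146 and 0.191 CPM (8.04 ± 1.19, adjusted p = 9.36e-05) and above them by 2.91 ± 0.67 (SE, adjusted p = 0.02). Leaving out 1 library ended the calls against the other tumors of Cd3g (with any 1 graft left out, adjusted p up to 0.131) and Il2rb (with any 1 graft left out, adjusted p up to 0.0794).

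Dendritic cell genes were higher in 10 of 14 cases. Xcr1 was at 5.68, 12.5 and 4.96 CPM with 1 count over the brains, and Clec9a at 13.2, 32.4 and 10.8 CPM against 0.0476, 0.107 and 0.103 CPM (7.74 ± 1.55, adjusted p = 0.000901). Both are markers of the dendritic cells that cross-present antigen, and both were above the Myc and extracranial tumors, by 3.64 ± 0.95 (SE, adjusted p = 0.034) and 4.68 ± 0.91 (SE, adjusted p = 0.0103). Zbtb46, a dendritic factor that other cells hold too, was the single lower gene (-1.73 ± 0.44, adjusted p = 0.00411). B cell genes were called higher in 4 of 9 cases, and the defining gene Cd79a was not called, at 0.591, 0.627 and 0.867 CPM. Of the differences against the other tumors, those of Xcr1 (with any 1 graft left out, adjusted p up to 0.139) and Clec9a (with graft 2 left out, adjusted p = 0.0568) did not stay past the threshold when single libraries were removed.

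Checkpoint genes were higher in 11 of 15 cases. Cd274, which encodes PD-L1, was at 85.7, 173 and 103 CPM in the grafts and 0.85, 2.59 and 1.8 CPM in brain (6.11 ± 0.78, adjusted p = 3.15e-05) and above the Myc and extracranial tumors by 1.74 ± 0.48 (SE, adjusted p = 0.0421). Pdcd1lg2, the second PD-1 ligand, was at 3.46, 49.7 and 7.33 CPM against 0.0318, 0.0776 and 0.151 CPM (7.83 ± 1.15, adjusted p = 9e-05), and graft 2 held most of it. Its difference from the other tumors was 6.30 ± 0.71 (SE, adjusted p = 0.000572). The receptor Pdcd1 was at 2.7, 25.3 and 10.2 CPM with 5 counts over the brains, again highest in graft 2. Tigit was above the other tumors by 4.01 ± 0.74 (SE, adjusted p = 0.00776). Cd276, which encodes B7-H3, was the single lower gene, at 13.9, 10.9 and 8.94 CPM against 36.9, 37.8 and 36 CPM (-1.71 ± 0.56, adjusted p = 0.0187). Single libraries decided the call against brain of Cd276 (with graft 2 or 3 left out, adjusted p up to 0.0668). The call against the other tumors did not survive the removal of 1 library for Cd274 (with any 1 graft, or brain 2 or 3, left out, adjusted p up to 0.194).

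Chemokine genes were higher in 14 of 18 cases, and 1 was above the Myc and extracranial tumors. That gene was Ccl8, at 4.52 ± 0.80 (SE, adjusted p = 0.0066). Ccl2, a monocyte attractant, was at 103, 83.2 and 36.5 CPM against 0.437, 0.146 and 0.0716 CPM (8.40 ± 1.32, adjusted p = 0.000147) and was not above the other tumors (-0.96 ± 0.83 (SE, adjusted p = 0.493)). Cxcl9, an interferon-gamma target that attracts T cells, was at 98.5, 312 and 164 CPM with 7 counts over the brains. Cx3cl1, which neurons make, was lower at 1.97, 2.51 and 3.42 CPM against 97.2, 59 and 83.2 CPM (-4.92 ± 1.07, adjusted p = 0.00156). Complement genes were higher in 10 of 14 cases. C3, the central component, was at 154, 335 and 288 CPM against 2.59, 2.28 and 2.43 CPM (6.73 ± 1.09, adjusted p = 0.000192) and above the other tumors by 3.08 ± 0.65 (SE, adjusted p = 0.0143). Removing 1 library ended the call against the other tumors of C3 (with graft 2 or 3 left out, adjusted p up to 0.0636).

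**Figure D4:**
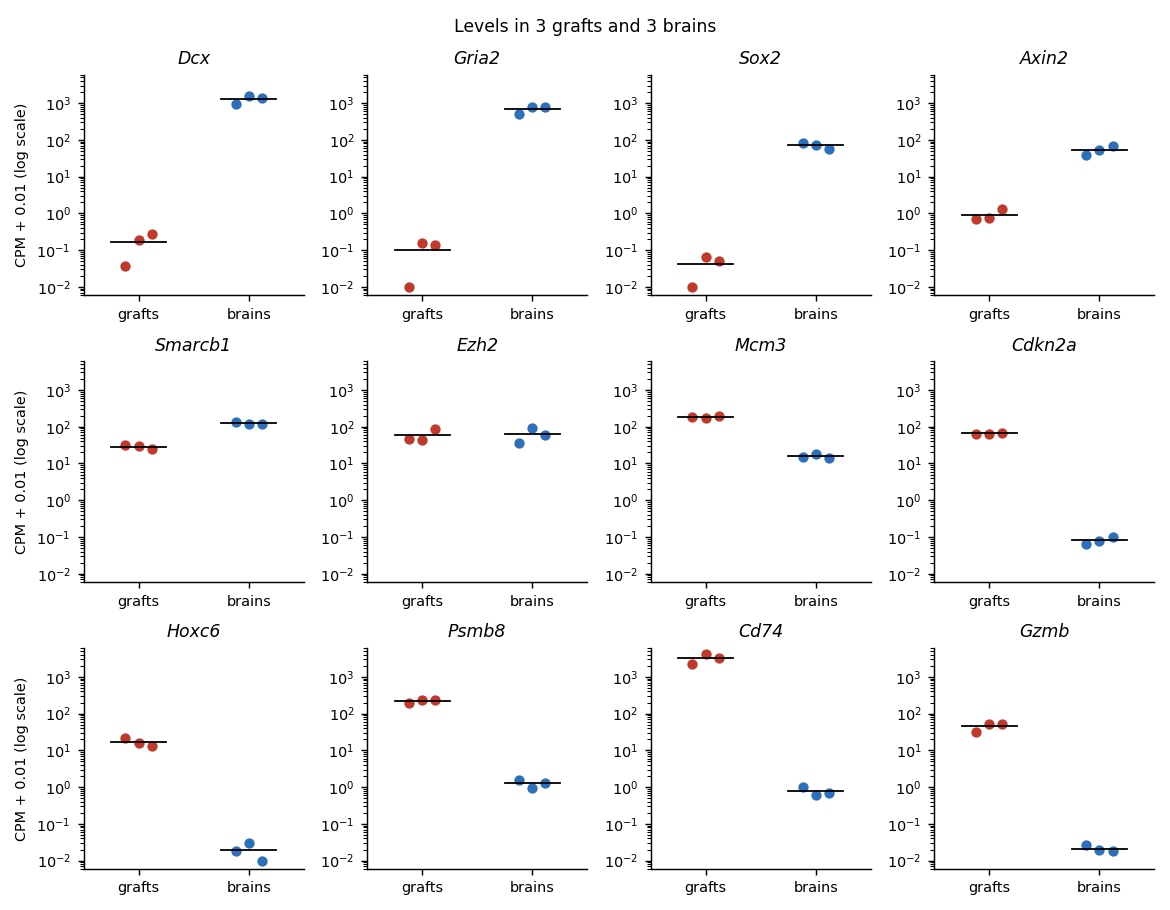
Level in each library, as CPM + 0.01 on a log y axis, of 12 genes (panels) in the 3 grafts and 3 brains. Points are libraries and horizontal bars are group means. Dcx, Gria2 and Sox2 lie near the bottom of the axis in grafts, Hoxc6, Gzmb and Cdkn2a lie near it in brain, and the groups overlap for Ezh2.

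Tissue of the flank itself was checked by markers of muscle, skin and fat. Skeletal muscle genes summed to 4.79 to 5.37 CPM in the grafts, under the 11.2 to 323 CPM in brain, where the top value was healthy brain 1. The 6 lower calls of that list fell to 0 without healthy brain 1, and to 1, 1 and 2 without graft 1, 2 or 3. Epidermal genes summed to 15 to 36.8 CPM in the grafts against 27.7 to 43.9 CPM in brain, and Krt14, the basal keratin, had 0 counts in the grafts. Adipocyte genes summed to 349.7 to 421 CPM in the grafts against 65.5 to 152 CPM in brain, with 3 of 10 higher, and 2 to 4 with 1 library left out. The fat hormone gene Adipoq was at 0, 0.0553 and 0.627 CPM and was not called. Pparg, a factor of fat cells and macrophages, was higher at 8.89, 19.9 and 17.7 CPM against 1.26, 0.281 and 0.461 CPM (4.53 ± 0.93, adjusted p = 0.00108). The fibroblast genes Col1a1, Col3a1 and Dcn were not called. Dcn, a proteoglycan of connective tissue, was at 26.8, 13.9 and 34.8 CPM in the grafts, 62.3, 41 and 23.4 CPM in brain and 1559 ± 2726 CPM in the extracranial tumors, and the grafts lay below the Myc and extracranial tumors by -4.92 ± 1.41 (SE, adjusted p = 0.0466). A call against the other tumors that 1 library could end was that of Dcn (with any 1 graft, or any 1 brain, left out, adjusted p up to 0.168).

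Few collagen genes were called against brain, and the count of higher ones depended on the setting. Of 22 collagen genes 1 was higher and 5 lower than brain, and 6 were below the Myc and extracranial tumors. Without healthy brain 1 the counts against brain were 3 higher and 3 lower. The alternative settings other than leaving out a library gave 1 to 11 higher and 3 to 5 lower. Without graft 1, 2 or 3 the counts below the other tumors were 0, 1 and 0. Col3a1 was at 213, 216 and 339 CPM in the grafts and 709, 195 and 126 CPM in brain (-0.42 ± 0.74, adjusted p = 0.645), and below the other tumors by -2.61 ± 0.72 (SE, adjusted p = 0.0416). Col16a1 was at 8.64, 8.75 and 12.6 CPM in the grafts against 215 ± 129 CPM in Myc and 542 ± 436 CPM in extracranial tumors, a difference of -5.09 ± 1.07 (SE, adjusted p = 0.0137). The brain proteoglycans Bcan and Ncan were nearly lost, with 11 and 20 counts over the grafts and 54474 and 214139 over the brains. Plau, the protease urokinase, was higher at 785, 669.6 and 113 CPM against 1.46, 1.71 and 0.74 CPM (8.65 ± 1.69, adjusted p = 0.000733), and Serpinh1, a collagen chaperone, at 644, 687 and 366 CPM against 129, 109 and 76.8 CPM (2.43 ± 0.37, adjusted p = 0.00011). Leave-one-out fits lost the calls against the other tumors of Col3a1 (with any 1 graft, or brain 2, left out, adjusted p up to 0.171) and Col16a1 (with any 1 graft left out, adjusted p up to 0.0777).

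Wnt genes were lower than brain in most cases. In the Wnt pathway 13 of 20 genes were lower than brain and 6 were below the Myc and extracranial tumors. Without graft 1, 2 or 3 the latter count was 5, 3 and 3. The secreted antagonist Sfrp1 was at 0.506, 0.405 and 0.46 CPM in the grafts and 92.1, 73.5 and 61.1 CPM in brain (-7.37 ± 0.83, adjusted p = 1.27e-05) and below the other tumors by -3.38 ± 0.65 (SE, adjusted p = 0.00966). Axin2, a direct target that reports pathway activity, was at 0.675, 0.719 and 1.3 CPM against 38.4, 51.6 and 68.8 CPM (-5.86 ± 1.82, adjusted p = 0.0141). The ligand Wnt5a was at 0.563, 1.24 and 0.324 CPM against 32.4, 28.4 and 29.2 CPM (-5.41 ± 1.84, adjusted p = 0.0224), and the target Notum had 5 counts over the grafts. Both were below the other tumors, by -7.45 ± 1.96 (SE, adjusted p = 0.0347) and -8.53 ± 1.5 (SE, adjusted p = 0.0066). The antagonist Dkk2 was higher (5.79 ± 1.98, adjusted p = 0.0231), yet at 255, 6.08 and 252 CPM it was near brain in graft 2. For Axin2 (with graft 1 or 2 left out, adjusted p up to 0.0508), Wnt5a (with graft 1 or 3 left out, adjusted p up to 0.0762) and Dkk2 (with any 1 brain left out, adjusted p up to 0.0718), the calls against brain needed every library named. Leaving out 1 library ended the calls against the other tumors of Sfrp1 (with graft 2 or 3 left out, adjusted p up to 0.0559) and Wnt5a (with any 1 graft left out, adjusted p up to 0.145).

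In the Hedgehog pathway 8 of 16 genes were lower than brain. Gli1, the transcription factor that serves as the pathway's readout, was at 0.0844, 0.387 and 0.272 CPM in the grafts and 30.1, 7.26 and 6.98 CPM in brain (-5.85 ± 1.03, adjusted p = 0.000355). The receptor Ptch1, also a target, was at 21.6 ± 4.03 CPM (mean ± SD) against 94.9, 81.8 and 58.6 CPM (-1.86 ± 0.53, adjusted p = 0.00917), and Hhip, the decoy receptor, was at 0.113, 0.0737 and 0.0522 CPM against 10.8, 6.19 and 11.4 CPM (-6.92 ± 1.22, adjusted p = 0.000348). Gli1 was below the Myc and extracranial tumors by -6.29 ± 1.02 (SE, adjusted p = 0.00508). The 2 higher genes were the cilium-base factors Evc (2.0 ± 0.33, adjusted p = 0.000204) and Evc2 (2.91 ± 0.39, adjusted p = 4.26e-05). Primary cilium genes were lower in 9 of 16 cases, led by Kif3a, a motor of cilium transport, at 29, 26.6 and 29.7 CPM against 173, 199 and 209.8 CPM (-2.77 ± 0.26, adjusted p = 3.92e-06).

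Notch genes were divided, with 4 higher and 6 lower of 17. Without brain 3 the count of higher ones was 2. Hes5, a neural Notch target, had 3 counts over the grafts and 4118 over the brains, while Dll4, the ligand of sprouting vessels, was at 27.1, 34.8 and 27.1 CPM against 13.4, 7.17 and 7.1 CPM (1.69 ± 0.44, adjusted p = 0.00547). TGF-beta and BMP genes had 6 higher and 6 lower of 20. Tgfb1 was at 172, 157 and 115 CPM against 8.66, 3.62 and 4.41 CPM (4.74 ± 0.55, adjusted p = 1.47e-05). The BMP antagonist Grem1 had 4 counts over the grafts against 3432 over the brains, and was below the other tumors by -10.63 ± 2.49 (SE, adjusted p = 0.022). Among receptor tyrosine kinases Met was at 305, 228 and 418 CPM against 4.61, 18.1 and 9.5 CPM (4.88 ± 1.13, adjusted p = 0.00238), Axl at 813, 815 and 570.5 CPM against 63.5, 25.9 and 25.7 CPM (4.26 ± 0.52, adjusted p = 2.4e-05) and the neurotrophin receptor Ntrk2 at 1.46, 0.405 and 1.98 CPM against 282, 306 and 350.1 CPM (-7.92 ± 1.55, adjusted p = 0.000739). Of the differences against the other tumors, that of Grem1 (with any 1 graft left out, adjusted p up to 0.105) did not stay past the threshold when single libraries were removed.

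Metabolic genes differed by pathway. Of 20 respiratory chain genes only Ndufa4 was called, lower, and the list median was -0.09, near the -0.16 of all genes. Glycolysis and hypoxia genes were higher in 11 of 20 cases, and leaving out single libraries gave 8 to 11. Ldha, which makes lactate, was at 602, 997 and 402 CPM against 156, 233 and 207 CPM (1.75 ± 0.35, adjusted p = 0.000859), with graft 2 highest. The angiogenic factor Vegfa was at 142, 445 and 119 CPM against 71.3, 136 and 95.9 CPM and was not called. Lysosome genes were higher in 14 of 16 cases. Grn, which encodes progranulin, was at 1481, 1377 and 1553 CPM against 81.3, 46.3 and 51.2 CPM (4.62 ± 0.31, adjusted p = 4.99e-07), and the protease gene Ctsb at 4408, 3923 and 4010.5 CPM against 351, 210.4 and 242 CPM (3.94 ± 0.41, adjusted p = 7.2e-06). Lysosome genes are abundant in macrophages, whose markers were also higher than brain, and that part was not tested. Across single libraries the summed levels of both lists did not keep the same order.

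Several stress genes were highest in graft 2. Atf3, a transcription factor of the integrated stress response, was at 44.8, 109 and 28.5 CPM in the grafts and 3.09, 0.621 and 0.732 CPM in brain (5.35 ± 1.34, adjusted p = 0.00395), and Ddit3, another, at 32.6, 91.2 and 29.9 CPM against 9.2, 8.87 and 8.65 CPM (2.52 ± 0.56, adjusted p = 0.00187). In both, and in Hk2, the hexokinase of hypoxic cells, at 57, 114 and 25.7 CPM (3.22 ± 0.87, adjusted p = 0.00659), graft 2 was the highest graft. With 3 grafts this is a description of 1 library. Immediate early genes, which handling and dissection can switch on within minutes, were higher in 11 of 16 cases. Egr1 was at 167, 263 and 127 CPM against 43.5, 7.27 and 10.1 CPM (3.20 ± 0.62, adjusted p = 0.000708), and Fos, at 56.9, 83.4 and 28.3 CPM against 34.9, 1.45 and 3.17 CPM, was not called. The time from death to RNA is not given in the sources used here.

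Most of the genes with the widest range among the 3 grafts were high in 1 graft. Among genes called against brain with at least 50 CPM in a graft, the 10 with the widest range over the grafts were Sele, Sult1e1, Tmprss11b, Ighg1, Slc28a3, Ighg2b, Igkc, Chrdl2, Cxcr2 and Nt5e. Graft 3 was the high one for Sele, the endothelial selectin induced by inflammation, at 0.225, 0.627 and 369 CPM. The chemokine receptor gene Cxcr2, at 16.6, 1.55 and 152 CPM, and the immunoglobulin light chain Igkc, at 0.731, 1.24 and 163 CPM, were highest there too. Graft 1 was the high one for Sult1e1, the estrogen sulfotransferase, at 194, 0.479 and 0.0209 CPM. The log2 difference from brain of Sele was 9.01 with all libraries and 0.86 without graft 3 (adjusted p = 0.662). Without graft 3 that of Igkc went from 9.71 to 3.92 (adjusted p = 0.0971), that of Ighg1 from 14.43 to 6.01 (adjusted p = 0.103), and that of Ighg2b from 11.74 to 3.78 (adjusted p = 0.282). Ighg2b also missed the threshold with any 1 brain left out (adjusted p up to 0.0665). Tmprss11b and Nt5e were at 0.13 and 0.30 without it (adjusted p = 0.95 and 0.801), while Cxcr2 stayed called at 5.12 (adjusted p = 0.00887). Without graft 1 that of Sult1e1 went from 12.01 to 3.95 (adjusted p = 0.0942). These genes were picked for their spread over the same grafts, so the values are a description. Chrdl2, a BMP antagonist, was at 90, 58.6 and 0.177 CPM and so was low in graft 3. Its call was lost with graft 1, graft 2 or any 1 brain left out (adjusted p up to 0.0916).

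**Figure D5:**
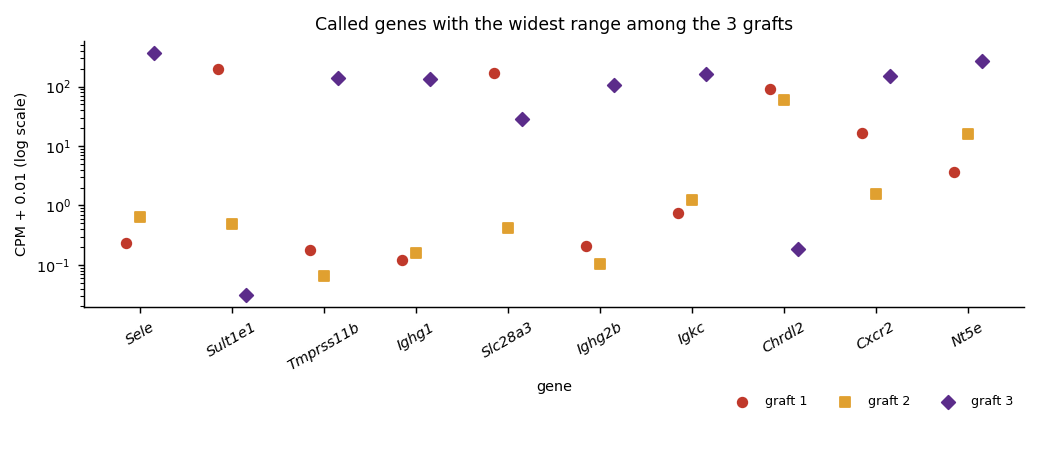
Level in each of the 3 grafts, as CPM + 0.01 on a log y axis, of the 10 called genes with the widest range among the grafts. Graft 3 alone is high for Sele, Tmprss11b, Ighg1, Ighg2b and Igkc, and graft 1 alone for Sult1e1.

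Sex-linked genes differed between the grafts. Xist, made from the inactive X chromosome of female cells, was at 542, 802 and 1107 CPM in grafts 1, 2 and 3, and Ddx3y, on the Y chromosome, was at 57.7, 50 and 0.0313 CPM. Grafts 1 and 2 thus held both transcripts and graft 3 held Xist alone. In brain Xist was at 0.945, 0.65 and 1386 CPM and Ddx3y at 136, 72.4 and 0.00795 CPM, each library holding one of the 2. None of the 5 X-linked and Y-linked genes listed was called by edgeR's quasi-likelihood test, while 0 had an unadjusted p under 0.05 and DESeq2 and limma called 0 and 0. Without brain 3, the brain with Xist, that gene alone of the 5 was called higher. The sex of graft donors and hosts is not given in the sources used here.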

How the data were processed

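The authors deposited raw counts by gene, in a separate file for each library, from polyA RNA libraries (a stranded mRNA kit, per the labels' protocols). The submitters' processing notes list STAR 2.5.3a and mm10. The counting tool, its strand setting and its annotation are not given in the sources used here, and antisense and overlapping genes can share reads. Totals ran from 18685672 to 130835711 counts per library. Gene symbols came from GENCODE M21 and promoter windows from RefSeq.

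The counts were fitted in edgeR 4.0.16 (R 4.3.3) with a robust quasi-likelihood model, 1 mean per group over all 17 libraries, TMM scaling and the filterByExpr default filter with its minimum count of 10. A count of 0 over a group was bounded by a floor of 3 counts over its summed libraries. On simulated counts with 50 genes changed per fold size, this test recovered 0 at 1.5-fold, 1 at 2-fold, 19 at 4-fold and 34 at 8-fold. Of the 20839 genes tested there, changed ones included, 1 unchanged gene was falsely called. Most genes were unchanged there, and recovery with 55.3% of genes called, as against brain, was not tested. Alternatives were RLE scaling, other count filters, only the compared groups, DESeq2 1.42.0, limma 3.58.1 with voom, a block and leaving out each graft or brain library.

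Genes were named by rule. They are the 20 with the largest change per direction among called genes with at least 10 CPM and no overlap between groups. Clone, pseudogene and bare identifier names were left out there. Fixed tumor genes and the 10 genes with the widest range among grafts were added. From 63 lists came the first 3 members, up to 6 per direction with the smallest adjusted p, and members against their list. The members and lists were chosen with earlier results of these data known. A few genes that the rule would name are not reported here.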

Additional observations from a re-analysis of the deposited data

Results flagged for a closer look

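For 8 of the genes named in the comparison with the Myc and extracranial tumors, the fitted difference from healthy brain had one sign in the grafts and the other in the mean of those 2 tumor groups. The difference between the grafts and those tumors is the one tested by edgeR's quasi-likelihood test, and the position of those tumors against brain was not itself tested. Both differences from brain use the same 3 brains, which cancel in the difference between the grafts and those tumors.

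With a negative difference in the grafts and a positive one in the mean of the other tumors stood Cdh11, Col16a1, Gli1, Grem1, Notum and Wnt5a. The log2 difference of Cdh11 from brain was -5.84 in the grafts and 1.11 in the other tumors, which differ by -6.95 (adjusted p = 0.0223). For Col16a1 the difference was -5.09 (adjusted p = 0.0137), with the tumors 2.54 above brain. The call of Col16a1 against brain (-2.55, adjusted p = 0.0417) was lost with any 1 graft, or brain 1 or 3, left out (adjusted p up to 0.142). Gli1, the Hedgehog target, differed by -6.29 (adjusted p = 0.00508), with the mean of the tumors 0.43 above brain. The 2 groups were not alike for Gli1, at 70.4 CPM in extracranial and 5.67 CPM in Myc tumors against 14.8 CPM in brain. Grem1 differed by -10.63 (adjusted p = 0.022), and its mean was 253 CPM in extracranial and 5.95 CPM in Myc tumors against 9.65 CPM in brain. So for Gli1 and Grem1 the mean of the Myc tumors lay below brain, as the grafts did. Notum differed by -8.53 (adjusted p = 0.0066) and Wnt5a by -7.45 (adjusted p = 0.0347). The differences from the other tumors of Cdh11, Col16a1, Grem1 and Wnt5a missed the threshold with any 1 graft left out (adjusted p up to 0.106, 0.0777, 0.105 and 0.145). The call of Wnt5a against brain ended with graft 1 or 3 left out (adjusted p up to 0.0762).

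With the signs the other way stood Ifng and Dnmt1. Ifng differed by 6.07 (adjusted p = 0.00258) and was at -1.38 against brain in the other tumors, with few reads behind it, 127 counts over the grafts. Its mean was 0.0224 CPM in brain, 0.038 CPM in Myc tumors and 0 in extracranial tumors. Dnmt1 differed by 1.0 (adjusted p = 0.00464) and was at -0.39 against brain in the other tumors. Its call against brain (0.61, adjusted p = 0.0192) was lost with graft 1 or 3, or brain 1, left out (adjusted p up to 0.081).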

How the results depend on the processing

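Each of the 13 alternative settings was run for both comparisons. Counts of genes higher and lower than brain stayed within 1.5 times of 5349 and 6542 under each of them, and 7776 and 9004 with limma voom were the highest. Genes called in both settings kept their sign in all 13. Leaving out single libraries gave 4308 to 4820 genes higher and 5544 to 5984 lower than brain. The comparison with the Myc and extracranial tumors moved more. Against 1060 higher and 706 lower, DESeq2 gave 1791 and 2430, limma voom 2932 and 2464, the compared groups alone 537 and 183, and testing every gene with a count gave 375 lower. Leaving out single libraries gave 328 to 963 higher and 67 to 531 lower, the lowest counts being those without a graft. The cause was not tested. The library numbers of the labels, used as a replicate block, gave 5279 higher and 6487 lower than brain and, against the other tumors, 694 higher and 301 lower. Deviations of same-numbered grafts and brains correlated at -0.058, 0.01 and 0.012, so the numbers were not taken to pair these libraries.

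Of 187 genes named against brain 160 were called. None of these lost the call with RLE scaling, nor with DESeq2 among the 176 named genes it gave a value for. Calls lost were 4 when every gene with a count was tested, 1 of the 179 with a value in the compared groups alone, 5 with limma voom, 9 with the replicate block and 10 to 17 with 1 library left out. Calls gained were 8 in the compared groups alone, 16 with limma voom, 4 with DESeq2, 3 without brain 1 and 1 without brain 3. A named gene given above as not called can thus be called under another setting. Of 36 genes called among the 42 named against the other tumors, 14 lost the call with the compared groups alone, among them Adgre1, Cd274, Cdh5 and Eomes, 13 with the replicate block, and 20, 25 and 21 without graft 1, 2 or 3. Graft 1 was the shallowest graft at 36951431 counts, and genes with a few counts over a group, such as Notum in the grafts, have fold sizes that rest on those counts.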
